A study of Mus musculus with 2 samples.

Results

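The Kruppel-like factors described here are 9 genes (Klf2, Klf3, Klf4, Klf6, Klf7, Klf9, Klf10, Klf12 and Klf13) that were read by 35 probe sets, out of 18193 genes and 45101 probe sets on the array. They were chosen by symbol: every probe set to which the platform annotation gave one of these names, and no second gene, was kept. RNA came from 2 preparations of naive T cells, taken from the lymph nodes of mice of the C57BL/6 strain with no genotype change or treatment stated. One held gamma/delta T cells, labelled as CD44-, and the other CD8+ alpha/beta T cells (CD8+ cells), and both were enriched by negative selection, which removes other cells and leaves the wanted ones unbound. Each preparation was read on 1 Affymetrix MOE430 2.0 array, which limits the precision: without replicates no standard error or test can be given, and each difference compares these 2 preparations. The labels give neither the age nor the number of mice. In such bulk RNA, fewer cells of a type and less RNA per cell cannot be told apart.

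Kruppel-like factors are transcription factors whose C-terminal zinc fingers bind CACCC and GC boxes in promoters, and which activate or repress according to the cofactor that their N-terminal part recruits. In naive T cells the family is known above all for Klf2, which keeps the cells quiescent and, downstream of the factor Foxo1, turns on the receptors that let them recirculate through lymph nodes. Klf4 is known to restrain T cell proliferation, and Klf3 and Klf12 are repressors that recruit the corepressor CtBP.

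The CACCC box is also found in promoters of the family's own genes, and the promoters of 3 members are shown because they differ in that box: Klf3, the 1 member with at least a 2-fold difference between the arrays, Klf6, whose ratio was the highest of the family, and Klf2, the member best known in T cells. The sequences are from RefSeq's promoter table (GRCm38.p6), in which 8 of the 9 members matched, all but Klf10. They are the 250 bases before the annotated start at chr5:64803271-64803520 (Klf3), chr13:5861239-5861488 (Klf6) and chr8:72318812-72319061 (Klf2), all on the + strand and written 5′ to 3′. Capitals mark CACCC on either strand (CACCC or GGGTG).
Klf3: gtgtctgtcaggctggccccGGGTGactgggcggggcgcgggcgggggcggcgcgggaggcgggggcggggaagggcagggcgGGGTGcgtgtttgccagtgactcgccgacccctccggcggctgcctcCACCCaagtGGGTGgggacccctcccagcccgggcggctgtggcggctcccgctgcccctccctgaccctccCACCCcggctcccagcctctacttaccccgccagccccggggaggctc
Klf6: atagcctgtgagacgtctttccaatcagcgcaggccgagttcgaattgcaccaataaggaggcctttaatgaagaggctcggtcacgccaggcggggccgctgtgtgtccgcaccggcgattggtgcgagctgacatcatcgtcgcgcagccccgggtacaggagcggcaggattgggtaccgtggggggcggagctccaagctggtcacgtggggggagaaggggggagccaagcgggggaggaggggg
Klf2: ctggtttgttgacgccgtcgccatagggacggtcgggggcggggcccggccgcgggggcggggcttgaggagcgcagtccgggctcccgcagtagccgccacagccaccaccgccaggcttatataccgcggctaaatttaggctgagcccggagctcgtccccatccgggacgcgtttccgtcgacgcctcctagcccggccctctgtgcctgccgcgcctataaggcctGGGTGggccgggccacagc

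The Klf3 promoter held 5 CACCC boxes, Klf7 held 3, Klf2, Klf9, Klf12 and Klf13 held 1 each, and Klf4 and Klf6 held 0. Of 32851 promoter windows of the same length, 52.0% held at least 1 and 0.667% held 5 or more. The cut-off of 5 was taken from the Klf3 window itself, so this share describes that window and is no test. GC boxes (GGGCGG or CCGCCC, which can share a base with a CACCC box) numbered 6 in the Klf3 window, 4 in that of Klf4, 3 in Klf13, 2 in Klf2, 1 each in Klf6 and Klf7, and 0 in Klf9 and Klf12, and 32.7% of all windows held at least 1. The Klf3 window was also the richest in G and C, at 78.4%, against 48.0% for Klf12. The 0.667% is over windows of any G and C content. The 3 windows shown were picked with the ratios known, and a link between boxes and ratios was not tested. These are matches of letters, and binding was not measured.

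Klf3 was lower in gamma/delta than in CD8+ alpha/beta T cells on each of its 6 probe sets with a ratio, and 5 of the 6 passed 2-fold. No other member passed 2-fold in either direction. Klf6 was higher in gamma/delta cells and Klf7 lower on most of their probe sets, by less than 2-fold. Klf2 and Klf13 read much alike on both arrays, while Klf4 was slightly higher and Klf10 slightly lower in gamma/delta cells. The probe sets of Klf9 disagreed in direction, and Klf12 was not measurable.

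The values are MAS5 signals, a linear brightness per probe set after a mismatch estimate is subtracted, which cannot be compared between probe sets. A signal under 243.3, the higher of the 2 array medians with control probe sets left out, was raised to this floor. The log2 ratio is that of the gamma/delta over the CD8+ signal. A probe set under the floor on 1 array therefore gives only a bound, and one under it on both gives no ratio. A probe set or gene was called at 2-fold. Of the 35 member probe sets, 24 lay above the floor on both arrays, 4 gave a bound and 7 lay under it on both. Of the 28 with a ratio, 0 were called higher in gamma/delta cells, where 4.68% of all 26402 probe sets with a ratio were, and 5 were called lower (17.9%), where 3.99% were. All 5 calls belong to Klf3 and so read 1 gene. With 1 value per gene, that of its brightest probe set by mean log2 signal over both arrays, 0 of 8 members were called higher and 1 lower, against 5.82% and 3.93% of 11914 genes. The median log2 ratio was 0.045 over the 8 members and 0.035 over all genes. It was -0.04 over the 28 member probe sets and 0.00 over all probe sets with a ratio.

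**Figure D1:**
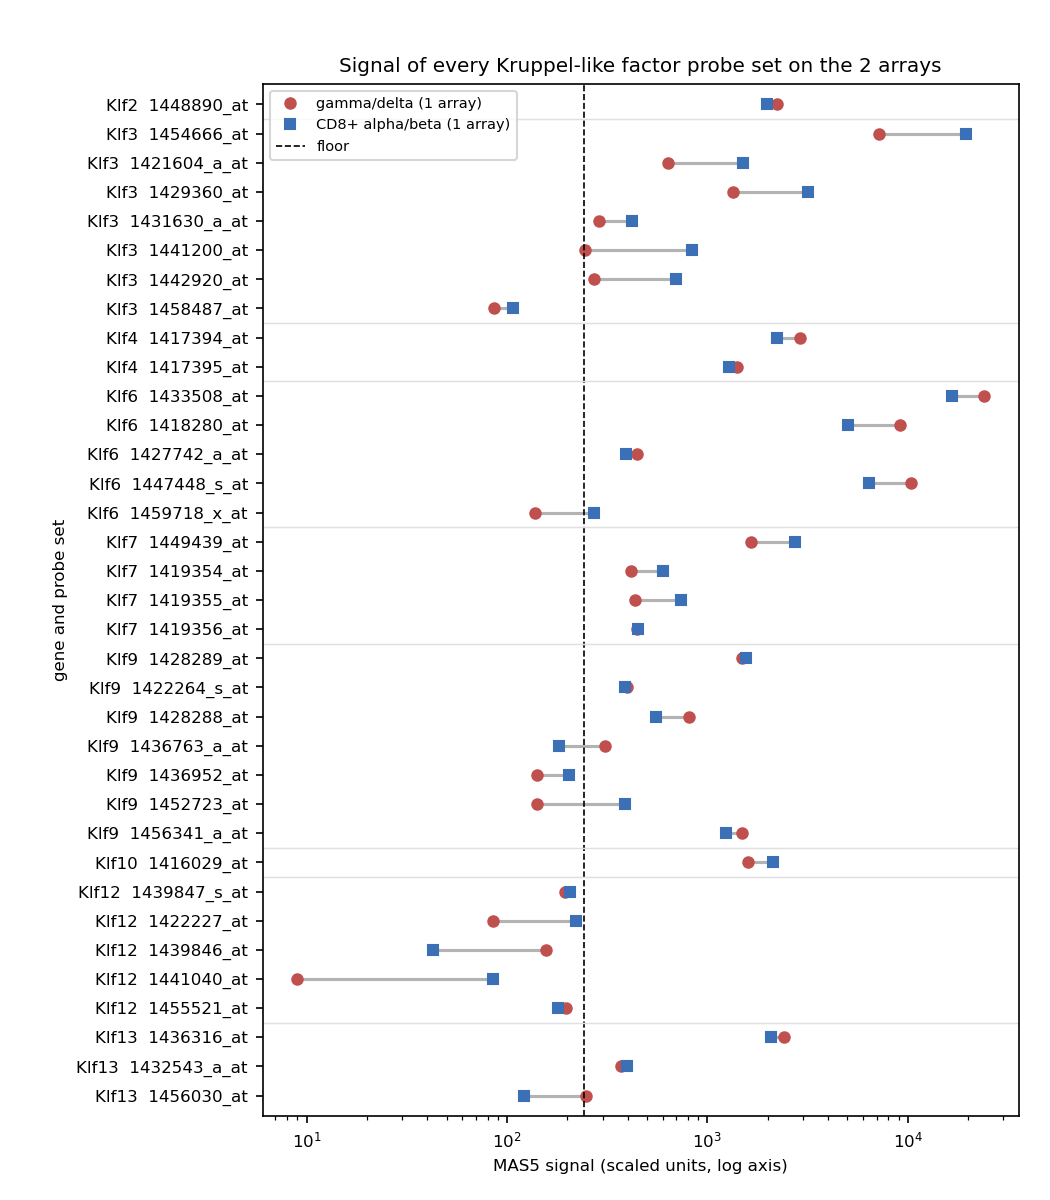
MAS5 signal (scaled units, log axis) of all 35 probe sets of the 9 genes, with 1 point for the gamma/delta array and 1 for the CD8+ alpha/beta array; the dashed line is the floor of 243.3. The Klf3 pairs lie with the CD8+ point to the right. The brightest is 1454666_at (19489.7 in CD8+ against 7158 in gamma/delta cells) and the widest apart 1441200_at (837 against 246). The 5 Klf12 pairs all lie left of the floor.

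The repressor Klf3 takes its gene value from probe set 1454666_at, with signals of 7158 in gamma/delta against 19489.7 in CD8+ cells, which is 2.72-fold lower in gamma/delta cells (log2 ratio -1.45). Probe set 1429360_at read 1339 in gamma/delta cells and 3194 in CD8+ cells, a log2 ratio of -1.25. On 1421604_a_at the signals were 637 and 1514, with the same log2 ratio of -1.25. These 3 stand well above the floor on both arrays and differ little in their ratio.

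The remaining Klf3 probe sets were dim on the gamma/delta array. Probe set 1441200_at read 246 in gamma/delta and 837 in CD8+ cells (log2 ratio -1.77), and 1442920_at read 271 and 696 (-1.36). The ratio nearest to 0, -0.56, was that of 1431630_a_at, with 288 against 423. Probe set 1458487_at lay under the floor on both arrays, at 85.9 and 107. Over the 6 probe sets with a ratio the mean log2 ratio was -1.27 ± 0.40 (SD between probe sets, n = 6), where the SD describes probe sets on the same pair of arrays and not samples. The pooled SD between probe sets of a gene was 0.50 over the 3317 genes that had several probe sets measured on both arrays. The 7 Klf3 probe sets were designed on 7 different source sequences, per the platform annotation. With a floor at the 70th percentile of the signals (447.2), 3 Klf3 probe sets kept their call, since 1441200_at and 1442920_at then had bounds of -0.91 and -0.64.

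For comparison, 130 genes had at least 6 probe sets with a ratio. Klf3 was the 1 gene among them, or 0.769%, with at least 5 called lower in gamma/delta cells, and 0 had at least 5 called higher. This rule was set after the Klf3 values were seen, so it is a description of Klf3 and not support for its difference. A single direction was less rare: 11 of the 130 genes, Klf3 included, had every ratio below 0, and 1 had every ratio above 0.

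**Figure D2:**
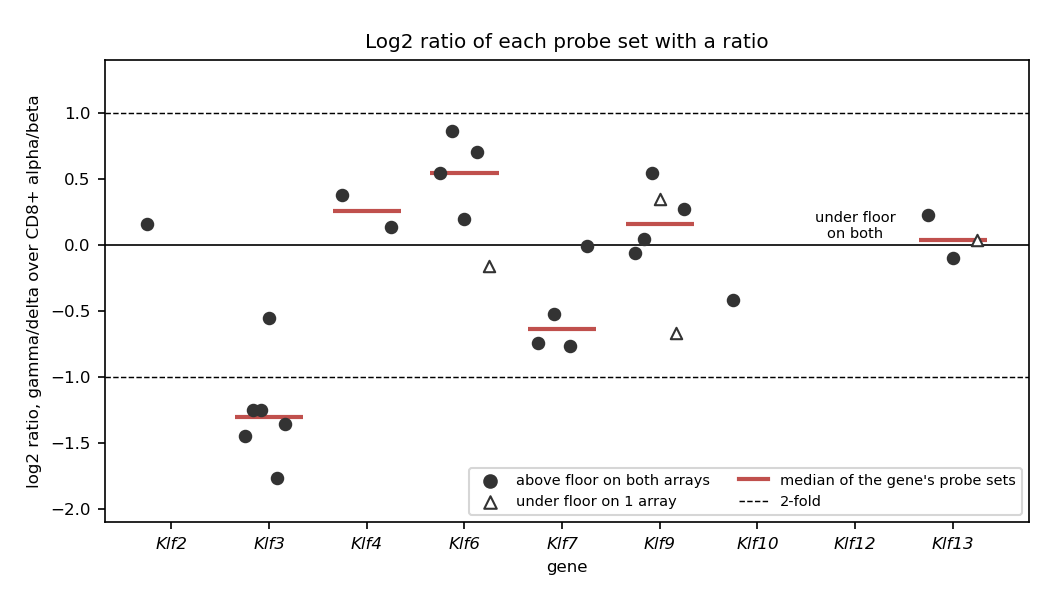
Log2 ratio of gamma/delta over CD8+ alpha/beta for the 28 member probe sets with a ratio; filled circles lie above the floor on both arrays, open triangles under it on 1 array, red bars are medians over a gene's probe sets and dashed lines mark 2-fold. The 6 Klf3 points run from -1.77 to -0.56, and the 22 points of the other members from -0.76 to 0.86, inside the 2-fold lines.

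Klf12, the other CtBP-binding repressor among the members described here, could not be compared. Its 5 probe sets read between 8.95 and 197 on the gamma/delta array and between 42.9 and 221 on the CD8+ array, all under the floor. Without a floor their log2 ratios ran from -3.26 (1441040_at, 8.95 against 85.7) to 1.87 (1439846_at, 157 against 42.9), so that probe sets of 1 gene pointed in opposite directions at this brightness. A transcript below what these probe sets can read was not detectable, which does not show that it was absent.

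Klf2, the quiescence and homing factor, was read by a single probe set, 1448890_at, at 2213 in gamma/delta and 1987 in CD8+ cells. Its log2 ratio of 0.16 is smaller than the spread between probe sets of a gene (pooled SD 0.50). That spread is between single probe sets on the same pair of arrays, serves only as a scale, and does not measure error between preparations. Klf4, its close relative that also restrains T cell proliferation, read 2894 and 2227 on 1417394_at and 1409 and 1286 on 1417395_at. The log2 ratios, 0.38 and 0.13, were both above 0, but the probe sets come from the same source sequence and their mean of 0.26 ± 0.17 (SD between probe sets, n = 2) also lies inside that spread. Both factors thus stood well above the floor in both preparations, which differed little.

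Klf6, an activator induced early when many cell types are stimulated, was higher in gamma/delta cells on 4 of its 5 probe sets. The signals were 24032 against 16522 on 1433508_at, 10377 against 6375 on 1447448_s_at, 9179.8 against 5043 on 1418280_at and 447 against 391 on 1427742_a_at. Their log2 ratios were 0.54, 0.70, 0.86 and 0.19, so the 3 probe sets far above the floor were 1.46- to 1.82-fold higher and the 1 near it differed least. The fifth, 1459718_x_at, went the other way with 138 against 273, which puts it at least 1.12-fold below CD8+ cells in gamma/delta cells. It shares its source sequence with 1447448_s_at, and the ending _x_at marks probes that may bind other transcripts. The mean log2 ratio was 0.43 ± 0.41 (SD between probe sets, n = 5, the fifth at its bound). The pooled SD of 0.50 between probe sets of a gene leaves bounds out, so this mean is not set against it. As single ratios, 0.54, 0.70 and 0.86 were larger than that SD and 0.19 was smaller. None of the 5 passed 2-fold, and after an intensity-dependent loess between the arrays 1418280_at did, with a log2 ratio of 1.01.

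Most other genes of the early response with a ratio were higher in gamma/delta cells. Of 15 such genes, taken as signs of handling or stimulation, 13 had a ratio, 10 above 0 and 3 below. In gamma/delta cells 8 were called higher and 1 lower (5.82% and 3.93% over all genes). The median log2 ratio of the 13 was 1.99. Fos, an AP-1 subunit, read 28219.7 against 306, and Dusp1, a MAP kinase phosphatase, 33077 against 6342, while Egr2 was called lower with 977.5 against 2047. Those inside 2-fold were Zfp36 (log2 ratio 0.68), Btg2 (0.04), Ier2 (-0.17) and Egr3 (-0.90). Summed over the list, the signal was 146671 in gamma/delta and 43112 in CD8+ cells. Such a sum adds unlike probe sets and leans on the brightest, here Jund (55407 against 26757), so it is only a rough description. The part of this difference in the Klf6 ratio was not tested.

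Klf10, an early gene of the TGF-beta response, was read by 1 probe set, 1416029_at. Its signals of 1593 in gamma/delta and 2127 in CD8+ cells gave a log2 ratio of -0.42, within the spread between probe sets.

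Klf7, an activator best known from neurons, was below 0 on all 4 of its probe sets. On 1449439_at, which gives the gene value, the signals were 1642.5 in gamma/delta and 2746.5 in CD8+ cells, 1.67-fold lower in gamma/delta cells (log2 ratio -0.74). Probe sets 1419355_at and 1419354_at read 433 against 735 and 418 against 602, with log2 ratios of -0.76 and -0.53. The fourth, 1419356_at, read 447 against 450.4, a log2 ratio of -0.01. All 4 derive from a single source sequence. Their mean log2 ratio was -0.51 ± 0.35 (SD between probe sets, n = 4), about the size of the pooled SD of 0.50 between probe sets of a gene. That SD is one of single probe sets and the mean is over 4, so it serves only as a scale. The direction towards CD8+ cells was thus that of Klf3, at a smaller size that did not reach 2-fold on any probe set.

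Klf9 and Klf13 belong to the group of factors that recruit the Sin3A corepressor, and Klf9 is also known as a gene that glucocorticoids and thyroid hormone induce. The 6 Klf9 probe sets with a ratio went both ways. Probe sets 1428289_at, which gives the gene value, and 1456341_a_at read 1485 against 1553 and 1496 against 1239, with log2 ratios of -0.07 and 0.27. Probe set 1428288_at read 805 against 552 (0.55) and 1422264_s_at 399 against 386 (0.05). The next 2 gave bounds in opposite directions: 1436763_a_at (309.7 in gamma/delta against 182 in CD8+ cells) was higher in gamma/delta cells by at least 1.27-fold, and 1452723_at (141 against 386) lower by at least 1.59-fold. Probe set 1436952_at lay under the floor on both arrays, at 140.5 and 203. Their mean log2 ratio of 0.08 ± 0.42 (SD between probe sets, n = 6) gives no direction.

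Klf13, which drives late expression of the chemokine gene Ccl5 in activated T cells, read 2423 in gamma/delta and 2069.8 in CD8+ cells on 1436316_at (log2 ratio 0.23). On 1432543_a_at it read 369 and 395 (-0.10), and on 1456030_at 249 against 122, which the floor reduces to a bound of 0.03. Its 3 probe sets had a mean log2 ratio of 0.05 ± 0.16 (SD between probe sets, n = 3).

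Beside the 9 members, the list of other Kruppel-like and Sp factors, which share the zinc fingers, held 17 genes, of which 14 were measured and 8 had a ratio. Of these 8, 0 were called higher in gamma/delta cells and 2 lower, where 5.82% and 3.93% of all genes with a ratio were. The median log2 ratio was -0.61 against 0.04 over all genes. In this list and those below, counts of 1 or 2 calls are too small to set a rate apart from these shares. Klf11, the closest relative of Klf10, was 2.50-fold lower in gamma/delta cells (365 against 911), and Sp3, a ubiquitous GC box factor, was 2.05-fold lower (395 against 808). Klf5 was at least 1.95-fold lower (214.0 against 475), and Klf16 had a log2 ratio of -0.62 (1019 against 1563). Klf11, Sp3 and Klf16 each had 1 probe set with a ratio. The probe sets of Sp4 disagreed, with log2 ratios from -1.02 to 0.55. Klf1, the erythroid factor, lay just above the floor in gamma/delta cells and under it in CD8+ cells (282 against 15.3), a bound of 0.21.

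Among 17 cofactors and ubiquitin ligases that act with or on Kruppel-like factors, 14 had a ratio. Of these, 0 were called higher and 2 lower (5.82% and 3.93% over all genes), and the median was a log2 ratio of -0.25. Crebbp, which encodes the acetyltransferase CBP, was 2.57-fold lower in gamma/delta cells (12511 against 32179), and 3 of its 4 probe sets with a ratio were called lower. Smurf1, a ubiquitin ligase, was at least 2.33-fold lower (177 against 566). Further acetyltransferase genes were lower by less than 2-fold by their gene value: Ep300 (2146 against 4060.2) had a log2 ratio of -0.92 and Kat2b (2129 against 3291) one of -0.63. The 3 probe sets of Kat2b ran from -1.02 to -0.57, and 1 of them was called lower. The CtBP genes themselves, through which Klf3 represses, differed little, with log2 ratios of -0.19 for Ctbp1 (6446 against 7337) and 0.44 for Ctbp2 (1671 against 1235). The 2 probe sets of Ctbp2 with a ratio disagreed in direction, at -0.11 and 0.44.

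Of 15 genes upstream of the family (FoxO and MEF2 factors, TGF-beta signalling and the ERK5 pathway), 13 had a ratio. Of these, 1 was called higher and 1 lower (5.82% and 3.93% over all genes), and the median log2 ratio was -0.06. The TGF-beta mediator Smad3 was 3.03-fold higher in gamma/delta cells (5548 against 1832), with its second probe set at a log2 ratio of 0.19. Its partner Smad4 was 2.64-fold lower (3623 against 9565), and all 3 probe sets of Smad4 were called lower, with log2 ratios from -1.92 to -1.39. Mef2a had a log2 ratio of -0.92 (428 against 808), with other probe sets up to 0.37, and Smad2 one of -0.68 (739.8 against 1187). Foxo1, the activator of Klf2, was above 0 on all 4 probe sets with a ratio, by log2 ratios from 0.38 to 0.85.

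The last list held 22 genes of homing, cell cycle and effector function that have been linked to Kruppel-like factors, 13 of them with a ratio. Of these 13, 1 was called higher and 1 lower (5.82% and 3.93% over all genes), and the median log2 ratio came to -0.02. Itgb7, which encodes the integrin beta 7 chain of gut homing, was 3.91-fold higher in gamma/delta cells (2741 against 702). Il7r, the interleukin 7 receptor of naive T cells, was 2.84-fold lower (13879 against 39478.8), as was its second probe set. The cell cycle inhibitor Cdkn1b had a log2 ratio of -0.66 (11299 against 17909.9), and its second probe set, at -1.38, was called lower. The cyclin Ccnd2 had one of 0.58 (4429 against 2962), the highest of its 7 probe sets, of which the lowest was -0.29. S1pr1, the egress receptor that Klf2 turns on, had a log2 ratio of 0.29 (948 against 774), and Ccr7, the lymph node homing receptor, one of -0.56 (1216 against 1795). The log2 ratio of Ccl5 was -0.20, with 594 against 684. S1pr1, Ccr7 and Ccl5 thus all lay inside 2-fold.

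**Figure D3:**
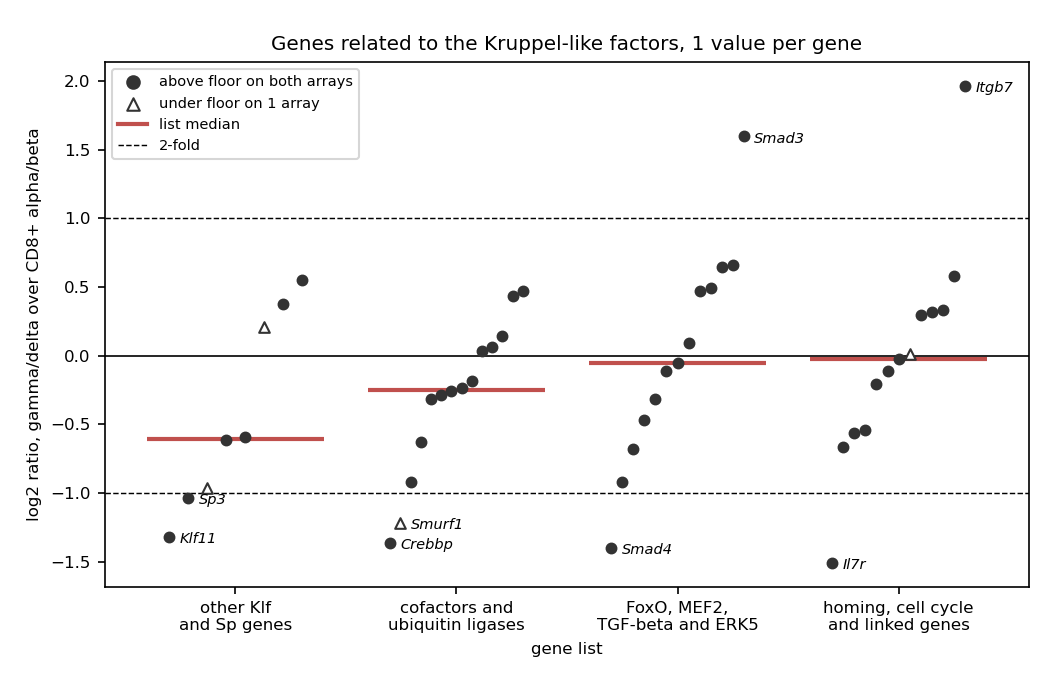
Log2 ratio of gamma/delta over CD8+ alpha/beta for the genes of the 4 lists that had a ratio, 1 value per gene; open triangles are bounds, red bars list medians and dashed lines 2-fold. Named points are those past 2-fold, from Il7r at -1.51 to Itgb7 at 1.97; 5 of 8 points lie below 0 among the Kruppel-like and Sp relatives and 9 of 14 among the cofactors.

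The labels were checked against markers. The 5 measured T cell genes lay above the floor on both arrays and had a median log2 ratio of 0.80. Cd3g (8062 against 3486) and Thy1 (5861 against 2724) were called higher in gamma/delta cells, Cd3e had a log2 ratio of 0.80, and Cd3d and Cd247 had gene values of -0.03 and -0.04, though 1 of the 4 Cd247 probe sets, at -1.13, was called lower. All 5 measured gamma/delta genes were called higher in gamma/delta cells: their signals there were at least 632.7, and in CD8+ cells at most 170.4, under the floor. Of the 3 measured CD8 alpha/beta genes, Cd8a and Cd8b1 were called lower, though at 731 and 382 they stayed above the floor in gamma/delta cells. Tcra went the other way (379 against 170.3, under the floor in CD8+ cells), a bound of 0.64. Cd44 had a log2 ratio of 0.32, with probe sets from -0.85 to 0.97. Markers of other cell types that carry Kruppel-like factors were read as well. Their summed signals add unlike probe sets and include signals under the floor, so they do not measure the amount of such cells. Of 7 endothelial or stromal markers measured, 5 had a ratio and 0 were called in either direction, with summed signals of 1849 and 1924. For 9 myeloid markers the sums were 1453 and 2015, with 5 ratios, 1 above 0 and 4 below, and 0 called. S100a9 lay above the floor on both arrays (371 and 498). Itgam (223 and 285), Cybb (165 and 381) and Spi1 (12.0 and 359) lay above it in CD8+ cells only. Adgre1 (254 and 210) did so in gamma/delta cells only, and Lyz2 and Cd14 lay under the floor on both. For 6 B cell markers they were 2445 and 1973, with 3 ratios and 0 called by gene value. Ms4a1 (858 and 616) and Ighm (1025 and 789) were above the floor on both arrays. The 3 probe sets of Ighm ran from -0.28 to 1.21, and 1 of them was called higher in gamma/delta cells. Of 5 dendritic cell markers 1 had a ratio and 0 were called, with sums of 921 and 571. Of 3 NK cell markers Nkg7 was called higher in gamma/delta cells (6304 against 1045), while Ncr1 lay under the floor on both. The 3 erythroid markers, Klf1 included, summed to 306 and 213. The part of such cells in the members' signals was not tested. The ratio of 3′ to 5′ signal for actin, a measure of RNA integrity, was 6.99 for gamma/delta and 3.12 for CD8+ cells, those of Gapdh were 3.06 and 3.24, and those of the transferrin receptor 3.97 and 4.47. Where along the transcripts the Klf3 probe sets lie was not used here, and the part of RNA integrity in its ratios was not tested.

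Across the processing settings tried, the gene value of each member but Klf9 and Klf12 kept its direction. Klf3 stayed called by its gene value in each floor, scaling and probe set rule, with log2 ratios from -1.45 to -1.14. Klf6 ran from 0.26 to 0.78, Klf7 from -0.75 to -0.51, Klf4 from 0.26 to 0.43, Klf2 from 0.15 to 0.19, Klf10 from -0.42 to -0.40 and Klf13 from 0.04 to 0.39. Klf9 ran from -0.09 to 0.16 and so changed sign around 0.

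**Figure D4:**
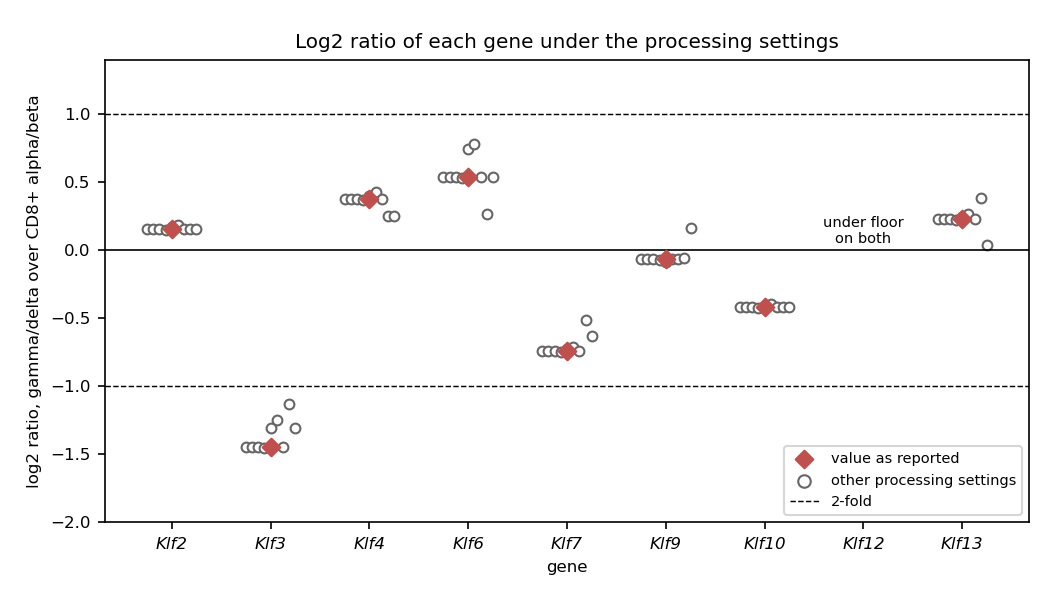
Log2 ratio of gamma/delta over CD8+ alpha/beta of each member as reported (red diamond) and under the other floors, scalings and probe set rules (open circles); dashed lines mark 2-fold. Klf3 lies below the lower 2-fold line in each setting, between -1.45 and -1.14, and the other members lie between the lines; Klf12 had no value as reported.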

How the data were processed

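Both arrays were used as deposited. The intensity values are linear MAS5 signals that, per the submitters' processing notes, the authors made with Affymetrix Expression Console 1.0. The trimmed mean (2% off each end) was 500.0 on both arrays, so they had been scaled to a common target, which hides any global difference in RNA. MAS5 spreads weak signals widely, which is why a floor was used. Symbols came from the platform annotation, and all 9 member identifiers matched RefSeq's gene table (GRCm38.p6). With controls left out, the array medians were 243.3 (gamma/delta) and 242.1 (alpha/beta).

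Ratios, calls and lists were computed in Python 3.11.15 with pandas 2.3.3, and the loess (fraction 0.3) in statsmodels 0.14.6. The code was tested on simulated data with known ratios. Alternatives were floors at the 30th and 70th percentile or none, median, quantile and loess scaling, calls at 1.5- and 3-fold, leaving out probe sets with the endings _x_at, _s_at and _a_at, and the mean or median over a gene's probe sets.

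The members and lists were chosen with earlier results of these data known. Named genes are all members and, per list, each called gene, filled to 4 by absolute log2 ratio. Ctbp1, Ctbp2, Foxo1, S1pr1, Ccr7, Ccl5, Sp4, Klf1, Fos, Dusp1, Egr2, Egr3, Zfp36, Btg2 and Ier2 were named after their values were seen. So were the myeloid markers S100a9, Itgam, Cybb, Spi1 and Adgre1. List genes with no probe set of a single symbol were not analysed here.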

Additional observations from a re-analysis of the deposited data

How the results depend on the processing

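The call of Klf3 as a gene was kept under every alternative but the 3-fold call, which left 0 member genes called lower, and the 1.5-fold call gave 2. No alternative called a member gene higher. Of the member probe sets, 5 were called lower as reported. That count was 3 with the 70th percentile as floor, 6 with it at the 30th, 8 with no floor, 8 at 1.5-fold, 1 at 3-fold and 4 without the _x_at, _s_at and _a_at endings. The count called higher was 0 as reported, 1 after loess, 2 with no floor and 2 at 1.5-fold. The extra calls with no floor each rest on at least 1 signal under 243.3, where Klf12 ran from -3.26 to 1.87. Klf12, with no value as reported, had a log2 ratio of -0.08 with a floor at the 30th percentile and with none.

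The member counts stand beside those over all probe sets with a ratio. Of 26402, 1235 were called higher and 1054 lower as reported, 3858 and 3672 at 1.5-fold, and 283 and 152 at 3-fold. With the 70th percentile as floor 605 and 571 of 15597 were called, and with the 30th 2815 and 2610 of 36097. With no floor the counts were 7819 and 7295 of 45037, and after loess 1239 and 1031 of 26355. Leaving out the _x_at, _s_at and _a_at endings gave 866 and 803 of 20603. No scaling moved the median of all probe sets by 0.1 or more. No paired analysis was possible because each group has 1 array, and no replicate could be left out.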
